A study of Cucumis sativus with 12 samples.

Results

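The comparison described here set the stigma and style of cucumber (Cucumis sativus) plants mutant in both Csspt and Csalc against the same tissue of wild-type (WT) plants, across all genes. It used 6 of the 12 RNA-seq libraries of the series: the 3 labelled with the genotype CssptCsalc-/-, called the double mutant, and the 3 labelled wild type. Of 24345 genes in the deposited table, 18380 had enough counts to be tested. All flowers were sampled at anthesis, the day the flower opens. The labels give 3 biological replicates per genotype, and they do not state the cultivar, how the mutations were made, the alleles, or whether a genotype is 1 line or several. The other 6 libraries, of the single mutants Csspt-/- and Csalc-/-, entered only the alternative fits.

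SPATULA and ALCATRAZ, the Arabidopsis proteins after which Csspt and Csalc are named, are closely related transcription factors of the basic helix-loop-helix (bHLH) family. In Arabidopsis, SPATULA is needed for the tissues at the carpel margins, among them the transmitting tract, and ALCATRAZ for the layer at which the fruit opens. The transmitting tract is the secretory core of the style: its cells separate in a matrix rich in pectins and glycoproteins, and pollen tubes grow through it from the stigma to the ovules.

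Levels are given as CPM (counts brought to a common library total with TMM factors, the trimmed mean of M values), which are the values the test saw, or as FPKM, which are scaled to gene length and allow comparison between genes. A log2 fold change is the double mutant over WT, fitted by edgeR, with its standard error after ±, from 3 libraries against 3. A gene was called, and is said to have risen or fallen, at an adjusted p under 0.05 (edgeR, quasi-likelihood test, Benjamini-Hochberg over all 18380 genes). Where means of FPKM are given, ± is the SD over 3 libraries.

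Library totals were 34749795 to 37986853 counts in the double mutant and 32244933 to 36079970 in WT, so counting error is small for all but the lowest genes. Correlations of log2 CPM between libraries were 0.974 to 0.985 within the double mutant and 0.981 to 0.986 within WT, and 0.923 to 0.944 between the groups. The 1st principal component, 69.0% of the variance, separated the 2 groups, and double mutant library 1 lay farthest from the rest of its group. Among the 12 libraries, Csalc library 3 stood apart, with correlations of 0.81 to 0.856 with the other 11. It enters no result here except the fit of all 12 libraries in 1 model, whose common biological coefficient of variation was 0.363, against 0.18 in the fit of the 6 compared libraries and 0.193 with only Csalc library 3 left out.

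The genes named for SPATULA were looked at first. The gene annotated as SPATULA (Csa2G356640) had 27.6, 26.2 and 18.6 CPM in the double mutant, against 48.5, 46.6 and 46.2 CPM in WT (log2 fold change -0.96 ± 0.15, edgeR adjusted p = 0.00264). Every double mutant library lay below every WT library, and the transcript was reduced rather than missing. The other SPATULA-named gene (Csa6G491000) was close to background, with 0.374, 0.475 and 0.337 CPM in the double mutant, against 0.256, 0.125 and 0.226 CPM in WT (log2 fold change 0.95 ± 0.44, edgeR adjusted p = 0.131), and was not called. No gene in the table is annotated as ALCATRAZ. The labels do not say which gene carries which mutation or of what kind, and a mutation that disrupts the protein need not change the transcript, so these values do not test the genotype. The gene annotated as SPATULA did not pass in the fit of all 12 libraries (edgeR adjusted p = 0.0887).

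The tissue was checked against markers of the carpel and style and of tissues that a stigma and style sample could also hold. Genes of carpel and style identity, all of them also in the list of carpel regulators described below, were expressed in both groups, and the 23 genes of that list summed to 537 to 641 FPKM in the double mutant and 479 to 497 FPKM in WT. Of its 15 tested members 4 rose and 4 fell, or 2 fell without Csspt Csalc library 2, WT library 2 or WT library 3. No count in any of the 6 libraries was found for 2 of the 23. Over all 18380 tested genes, 20.1% rose and 16.0% fell. The sums are on the authors' FPKM scale, on which the double mutant lies slightly higher than on the scale of the test. The median log2 fold change of all genes was 0.10 with limma on log2(FPKM + 1) and 0.03 with edgeR. Small differences between the sums therefore depend on the scale. Genes of photosynthesis were higher in the double mutant, where the 49 green tissue markers summed to 4002 to 4999 FPKM, against 2256 to 2557 FPKM in WT. The 18 xylem markers summed to 28.6 to 38.2 FPKM in the double mutant and 20.4 to 21.7 FPKM in WT, and the 36 phloem markers to 764 to 848 FPKM in the double mutant and 751 to 786 FPKM in WT. Pollen markers were lower in the double mutant: 23 genes summed to 44.0 to 46.7 FPKM in the double mutant and 93.1 to 109.5 FPKM in WT. The median log2 fold change of the list's 12 tested members was -0.74, against 0.03 for all genes, and 41.7% were called, against 36.1%. Of these 12, 1 rose, a call lost without Csspt Csalc library 2 or 3 or WT library 2 or 3, and 4 fell. The largest of these falls was that of a gene named for the olive pollen allergen Ole e 6 (Csa5G222980), which averaged 0.589 ± 0.329 FPKM in the double mutant and 44.0 ± 8.60 FPKM in WT (log2 fold change -6.32 ± 0.35, edgeR adjusted p = 8.25e-05). Pollen receptor-like kinase 3 (Csa2G000010) averaged 6.36 ± 0.743 FPKM in the double mutant and 17.9 ± 0.732 FPKM in WT (log2 fold change -1.60 ± 0.12, edgeR adjusted p = 0.000175). Most of the difference between the sums lay in these genes: without the first, the other 22 summed to 43.7 to 46.1 FPKM in the double mutant and 58.9 to 59.0 FPKM in WT, and without both, the other 21 summed to 38.1 to 39.6 FPKM in the double mutant and 40.5 to 41.95 FPKM in WT. These sums were added after the data were seen, and leaving out genes picked for their falls narrows the difference by construction. A further 2 pollen markers, AGL104 (Csa4G496250) and an Ole e 6 gene (Csa6G102490), had no count in any library. The 40 seed markers summed to 244 to 251 FPKM in the double mutant and 261 to 290.5 FPKM in WT and the 13 epidermis markers to 33.4 to 42.7 FPKM in the double mutant and 39.6 to 46.9 FPKM in WT. In whole-tissue RNA, fewer cells of a type and less RNA per cell cannot be told apart. Pollen receptor-like kinase 3 did not pass in the fit of all 12 libraries (edgeR adjusted p = 0.0622).

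**Figure D1:**
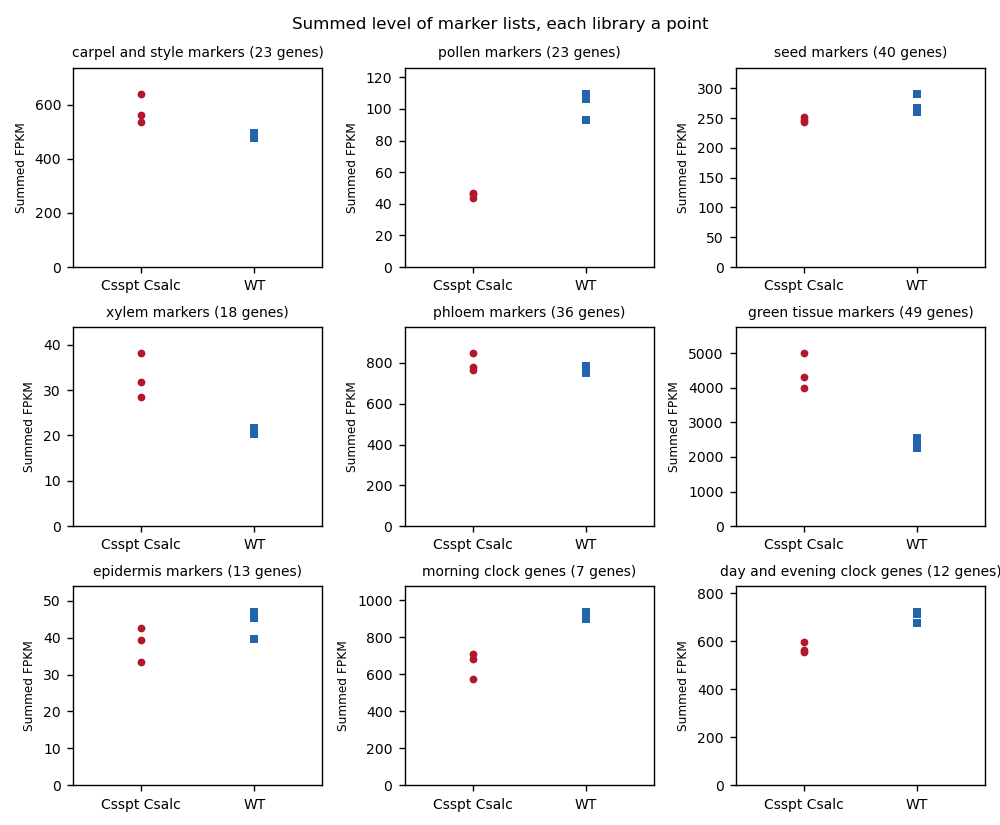
Summed FPKM of each marker list (vertical axes, from 0) in the 3 Csspt Csalc libraries (circles, left) and the 3 WT libraries (squares, right). The groups do not overlap for the carpel and style, pollen, seed, xylem, green tissue and both clock lists, and they overlap for the phloem and epidermis lists.

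The double mutant differed from WT in a large part of the measured transcriptome. Of the 18380 genes tested, 6638 were called, which is 36.1%: 3694 rose (20.1%) and 2944 fell (16.0%). With at least a 2-fold difference, 1692 rose (9.21%) and 868 fell (4.72%). Larger steps were mostly rises: 616 genes rose and 242 fell at least 4-fold, and 98 rose and 35 fell at least 16-fold. Of the 6638 called genes, 6589 had no overlap between the 2 groups of libraries; over all tested genes the libraries did not overlap in 52.4%. The largest rises and falls named below were chosen among genes with an informative protein name and without overlap. Up to 4 called members per list were also chosen among those without overlap, so statements on overlap only describe the libraries. At an unadjusted p under 0.05 there were 8542 genes.

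Rises outnumbered falls among genes of low level, and falls outnumbered rises among abundant ones. Below a mean of 1 FPKM in both groups, 288 genes rose and 72 fell, and from 1 to 10 FPKM over the 6 libraries 1718 rose and 804 fell. From 10 to 100 FPKM, 1308 rose and 1695 fell. At 100 FPKM or more, 187 rose and 307 fell, and at least 2-fold there, 31 rose and 94 fell. The median log2 fold change of all tested genes was 0.03. On the authors' FPKM scale that median was 0.10, and 67.5% of the genes called by limma on log2(FPKM + 1) were higher in the double mutant, against 55.6% of the calls from counts. The median of 0.03 and the share of 36.1% called are the background of the gene groups below.

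**Figure D2:**
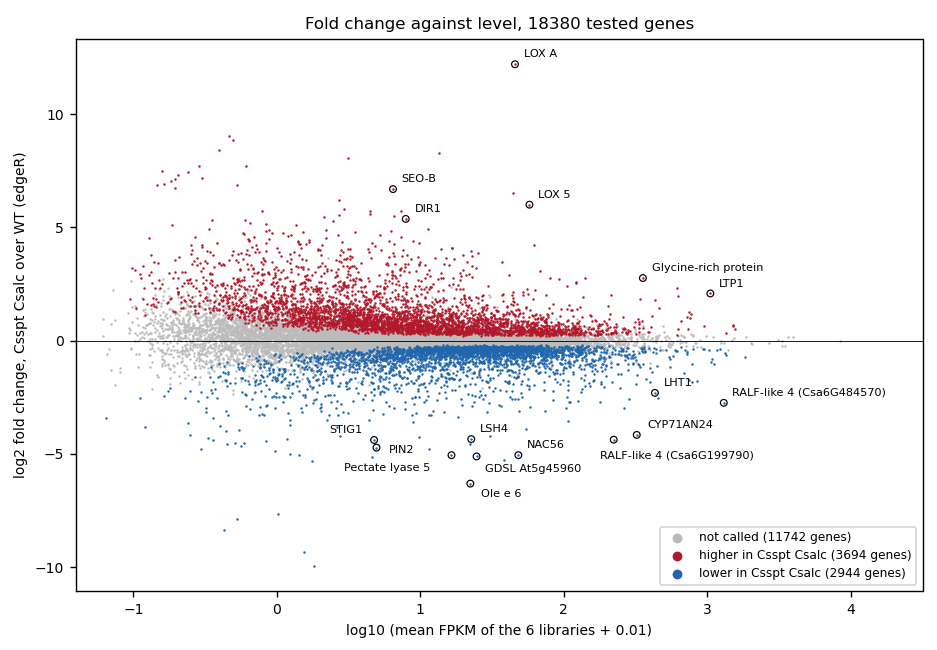
Fitted log2 fold change of the double mutant over WT (vertical axis) against log10 of the mean FPKM of the 6 libraries plus 0.01 (horizontal axis), 1 point per tested gene, with 3694 genes called higher in red and 2944 called lower in blue. Rises outnumber falls at low levels, and the labelled RALF-like 4 and CYP71AN24 genes are among the falls at the highest levels.

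The fit of all 12 libraries, in which every group shares 1 estimate of the spread, called 1353 genes in this comparison: 711 higher and 642 lower, of which 1349 were among the 6638 and in the same direction. With Csalc library 3 left out of that fit, 6875 genes were called. Of the counts of rises and falls per gene list given below, 96 moved by more than 1.5 times in the fit of all 12 libraries and 14 did not; with limma on log2(FPKM + 1), 15 did and 95 did not. Of the 238 called genes that the naming rule gives, 130 were also called with all 12 libraries, and those named below that were not are listed at the end of each paragraph, with any whose fold moved by more than 1.5 times when 1 library was left out. Leaving out 1 of the 6 libraries at a time gave 4467 to 6089 calls. In the authors' deposited table, 1327 genes were higher and 732 lower in the double mutant at an FDR under 0.05 and at least 2-fold. Of these, 2024 were called here in the 2-fold set, which is 98.3% of the authors' list and 79.1% of the calls here.

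Among non-overlapping genes with an informative protein name, the largest rise was that of a 9-lipoxygenase. Others of its family were among the 15 largest rises, behind genes of other kinds. These enzymes add oxygen to linoleic acid and so start the synthesis of oxylipins. Linoleate 9S-lipoxygenase A (Csa2G023910) had no count in WT, against 21.0, 12.8 and 16.3 CPM in the double mutant, which is at least 549-fold higher when WT is set to a floor of 3 counts over its 3 libraries. Linoleate 9S-lipoxygenase B (Csa2G023920) had 32.2, 20.7 and 27.5 CPM in the double mutant, against 0.228, 0.344 and 0.290 CPM in WT (log2 fold change 6.53 ± 0.26, edgeR adjusted p = 3.1e-05). Probable linoleate 9S-lipoxygenase 5 (Csa2G023900) had 84.8, 59.1 and 59.3 CPM in the double mutant, against 0.741, 1.12 and 1.32 CPM in WT (log2 fold change 6.0 ± 0.25, edgeR adjusted p = 3.1e-05). All 3 were clearly on in the double mutant and close to off in WT. A further 2 genes of this family, Csa2G028480 and Csa2G028500, also rose, with log2 fold changes of 5.60 ± 0.63 and 5.54 ± 0.88. In WT the second had 4 counts, all in library 3, so its fold depends on that library. How reads shared by such similar copies were counted is not given in the sources used here, so the split between copies is uncertain. Csa2G028480 had a log2 fold change of 4.98 without WT library 1 and 6.596 without WT library 3. Csa2G028500 had a log2 fold change of 4.95 without WT library 1 and 9.23 without WT library 3.

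Other large rises came from genes of several kinds. Glucan endo-1,3-beta-glucosidase 13 (Csa1G537410), of the family that cuts callose, had 4.89, 2.58 and 3.65 CPM in the double mutant, against 0.0285, 0 and 0 CPM in WT. WT held a single count, and the count ratio was 366, with a 95% exact interval of 65.4 to 14510 that covers counting error only. SIEVE ELEMENT OCCLUSION B (Csa2G196900), a structural protein of sieve elements, the conducting cells of the phloem, had 47.9, 19.4 and 34.5 CPM in the double mutant, against 0.342, 0.438 and 0.193 CPM in WT (log2 fold change 6.69 ± 0.45, edgeR adjusted p = 0.000139). The lipid-transfer protein DIR1 (Csa7G372360), known in Arabidopsis for a part in long-distance resistance signalling, had 14.1, 14.1 and 6.38 CPM in the double mutant, against 0.342, 0.125 and 0.354 CPM in WT (log2 fold change 5.37 ± 0.46, edgeR adjusted p = 0.000287). A gene named acetylornithine deacetylase (Csa3G902920) had 31.5, 9.71 and 15.7 CPM in the double mutant, against 0.142, 0.812 and 0.322 CPM in WT (log2 fold change 5.48 ± 0.65, edgeR adjusted p = 0.000952). The desiccation-related protein PCC13-62 (Csa7G396330) had 33.3, 30.6 and 17.1 CPM in the double mutant, against 0.256, 1.41 and 0.999 CPM in WT (log2 fold change 4.94 ± 0.50, edgeR adjusted p = 0.000538). All 5 were under 2 CPM in every WT library. Glucan endo-1,3-beta-glucosidase 13 had a log2 fold change of 10.04 without WT library 1. A gene named acetylornithine deacetylase had a log2 fold change of 4.89 without Csspt Csalc library 1 and 6.36 without WT library 2.

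The largest falls included genes that were nearly silent in the double mutant. Ribonuclease MC (Csa3G736680), named for a ribonuclease of bitter gourd, had no count in the double mutant and 1.79, 4.53 and 4.16 CPM in WT. With the double mutant set to a floor of 3 counts over its libraries it was at least 130.0-fold lower there. LIGHT-DEPENDENT SHORT HYPOCOTYLS 4 (Csa3G383780), of a family of nuclear proteins active at organ boundaries in Arabidopsis, had 1.20, 2.11 and 1.83 CPM in the double mutant, against 36.6, 35.2 and 32.9 CPM in WT (log2 fold change -4.35 ± 0.20, edgeR adjusted p = 3.84e-05). FAF3 (Csa7G389490), of a family that affects shoot meristem size in Arabidopsis, had 0.374, 0.0527 and 0.562 CPM in the double mutant, against 12.1, 10.3 and 12.02 CPM in WT (log2 fold change -5.12 ± 0.48, edgeR adjusted p = 0.000395). Flowering-promoting factor 1-like protein 1 (Csa3G153750) had 1.20, 0.897 and 0.843 CPM in the double mutant, against 21.99, 32.4 and 15.9 CPM in WT (log2 fold change -4.57 ± 0.31, edgeR adjusted p = 0.000139). All 4 were under 3 CPM in every double mutant library. A new gene model annotated as the cytochrome P450 CYP71AN24 (Cucumis_sativus_newGene_1864) had 6.36, 3.93 and 3.85 CPM in the double mutant, against 173, 215 and 169 CPM in WT (log2 fold change -5.29 ± 0.23, edgeR adjusted p = 3.58e-05). The GDSL lipase At5g45960 (Csa6G518310), of a large family of secreted lipid hydrolases, had 1.55, 2.03 and 2.75 CPM in the double mutant, against 65.4, 74.8 and 78.5 CPM in WT (log2 fold change -5.11 ± 0.20, edgeR adjusted p = 3.1e-05). The P450 and the lipase were both well expressed in every WT library and low in every double mutant library. Ribonuclease MC did not pass in the fit of all 12 libraries (edgeR adjusted p = 0.0923). FAF3 had a log2 fold change of -5.72 without Csspt Csalc library 3.

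**Figure D3:**
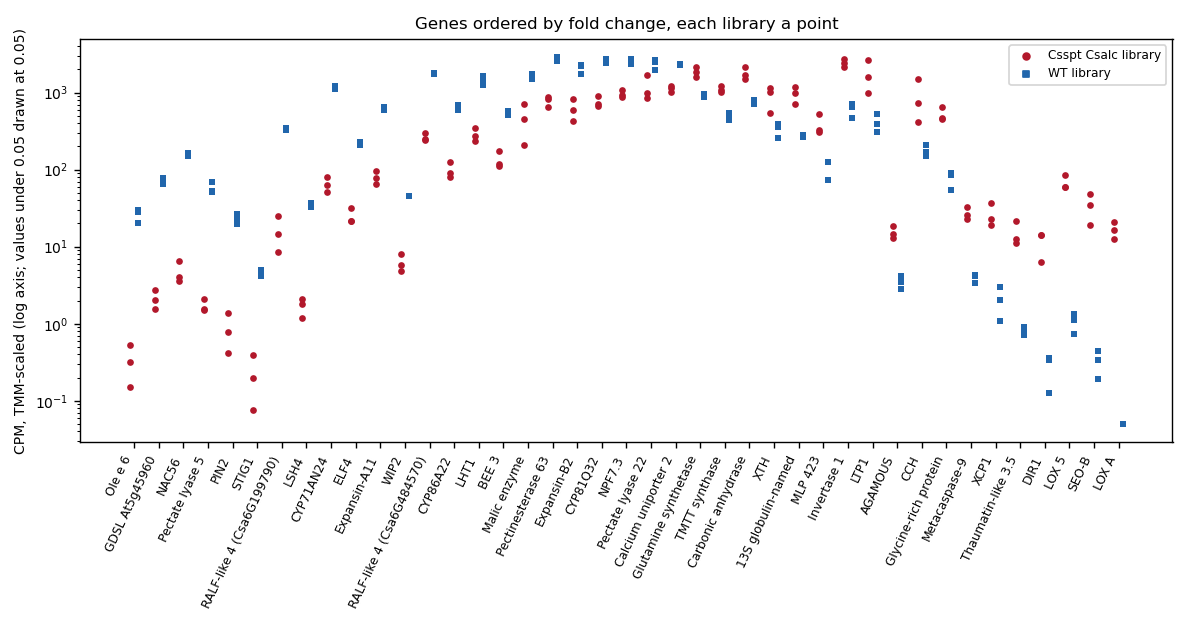
TMM-scaled CPM (log axis, values under 0.05 drawn at 0.05) of called genes, most of them named in the text, ordered by fold change from the largest fall on the left to the largest rise on the right, with 3 Csspt Csalc libraries (circles) left of 3 WT libraries (squares) for each gene. For every gene drawn the 2 groups of libraries do not overlap, which was part of the rule that chose the largest changes and the members named from lists.

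Among abundant transcripts with an informative protein name, the largest loss in FPKM was that of a RALF peptide. RALF peptides are small secreted signals that bind receptor kinases at the cell wall, and RALF4 of Arabidopsis acts in pollen tubes. RALF-like 4 gene 1 (Csa6G484570) averaged 360.5 ± 39.0 FPKM in the double mutant and 2246 ± 64.8 FPKM in WT (log2 fold change -2.75 ± 0.11, edgeR adjusted p = 3.1e-05). RALF-like 4 gene 2 (Csa6G199790) averaged 21.9 ± 11.1 FPKM in the double mutant and 424 ± 17.2 FPKM in WT (log2 fold change -4.38 ± 0.37, edgeR adjusted p = 0.000265). Both were lower in every double mutant library than in any WT library, and together with 26 other genes of the CrRLK1L receptor and RALF list they summed to 673 to 785 FPKM in the double mutant and 2931 to 3081 FPKM in WT. Of 18 tested members of that list, 5 rose (3 to 5 with 1 library left out, fewest without WT library 2) and 4 fell (4 to 5), with a median log2 fold change of -0.01. Some receptors of the family, which sense the state of the wall, rose. A FERONIA-named gene (Csa4G129580) had 6.86, 7.75 and 6.04 CPM in the double mutant, against 2.39, 1.75 and 2.77 CPM in WT (log2 fold change 1.58 ± 0.21, edgeR adjusted p = 0.00159). A HERK 1-named gene (Csa5G177140) had 25.1, 31.4 and 26.9 CPM in the double mutant, against 11.4, 6.69 and 10.9 CPM in WT (log2 fold change 1.52 ± 0.21, edgeR adjusted p = 0.00166). As pollen markers were also lower in the double mutant, the other pollen genes were set beside these. ANXUR1 (Csa5G640560), a receptor of pollen tubes in Arabidopsis, averaged 5.33 ± 1.40 FPKM in the double mutant and 4.59 ± 1.01 FPKM in WT (log2 fold change 0.10 ± 0.24, edgeR adjusted p = 0.775) and was not called. Of the 12 tested pollen markers 1 rose and 4 fell, and their part in the RALF result was not tested.

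Other abundant transcripts that fell act on the wall, in transport and in metabolism. Expansin-B2 (Csa3G117420), of a protein class that loosens walls, averaged 407 ± 139 FPKM in the double mutant and 1282 ± 177 FPKM in WT (log2 fold change -1.77 ± 0.23, edgeR adjusted p = 0.00144). Pectinesterase 63 (Csa1G597780), which removes methyl groups from pectin, averaged 369 ± 61.6 FPKM in the double mutant and 1197 ± 67.0 FPKM in WT (log2 fold change -1.81 ± 0.13, edgeR adjusted p = 0.00017). The second new model annotated as CYP71AN24 (Cucumis_sativus_newGene_1862), named for a P450 that acts on aldoximes in Japanese apricot, averaged 33.97 ± 6.83 FPKM in the double mutant and 611 ± 28.0 FPKM in WT (log2 fold change -4.17 ± 0.17, edgeR adjusted p = 3.1e-05). No double mutant library reached the lowest WT library of the same gene. Lysine histidine transporter 1 (Csa5G590140), an amino acid carrier, averaged 155 ± 35.1 FPKM in the double mutant and 708 ± 106 FPKM in WT (log2 fold change -2.31 ± 0.18, edgeR adjusted p = 0.000188). NRT1/PTR FAMILY 7.3 (Csa3G904070), of the nitrate and peptide transporter family, averaged 398 ± 41.5 FPKM in the double mutant and 982 ± 86.7 FPKM in WT (log2 fold change -1.41 ± 0.12, edgeR adjusted p = 0.000281). Cytochrome P450 81Q32 (Csa6G492230) averaged 358 ± 55.0 FPKM in the double mutant and 1124 ± 72.4 FPKM in WT (log2 fold change -1.76 ± 0.13, edgeR adjusted p = 0.000181). The spread between libraries was small beside each of these differences. NRT1/PTR FAMILY 7.3 and cytochrome P450 81Q32 did not pass in the fit of all 12 libraries (edgeR adjusted p from 0.225 to 0.314).

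The abundant transcripts that rose included non-specific lipid-transfer protein 1 (Csa3G728130), a small secreted protein that carries lipids, at 1727 ± 880.3 FPKM in the double mutant and 375 ± 101 FPKM in WT (log2 fold change 2.08 ± 0.36, edgeR adjusted p = 0.0045). Its 3 double mutant libraries spread widely, at 1575 CPM in library 2 between 2632 CPM in library 1 and 978 CPM in library 3, and all lay above WT. Cell wall invertase (Csa3G777580), the insoluble beta-fructofuranosidase that splits sucrose outside the cell, averaged 1024 ± 109.5 FPKM in the double mutant and 236 ± 52.6 FPKM in WT (log2 fold change 1.99 ± 0.18, edgeR adjusted p = 0.000358). Chloroplast carbonic anhydrase (Csa5G601560) averaged 1081 ± 227 FPKM in the double mutant and 418 ± 18.9 FPKM in WT (log2 fold change 1.26 ± 0.14, edgeR adjusted p = 0.000796). Copper transport protein CCH (Csa5G615220), a copper chaperone, averaged 1039 ± 689 FPKM in the double mutant and 192 ± 29.2 FPKM in WT (log2 fold change 2.31 ± 0.43, edgeR adjusted p = 0.00573). CCH was highest in double mutant library 1, as lipid-transfer protein 1 was. A glycine-rich protein (Csa7G037600) averaged 626 ± 149 FPKM in the double mutant and 85.2 ± 21.7 FPKM in WT (log2 fold change 2.76 ± 0.23, edgeR adjusted p = 0.000264). Cytosolic glutamine synthetase (Csa3G304140), which fixes ammonium, averaged 1038 ± 150.3 FPKM in the double mutant and 478 ± 23.3 FPKM in WT (log2 fold change 1.01 ± 0.13, edgeR adjusted p = 0.00123). Non-specific lipid-transfer protein 1 and cytosolic glutamine synthetase did not pass in the fit of all 12 libraries (edgeR adjusted p from 0.0676 to 0.139). Copper transport protein CCH had a log2 fold change of 1.67 without Csspt Csalc library 1.

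**Figure D4:**
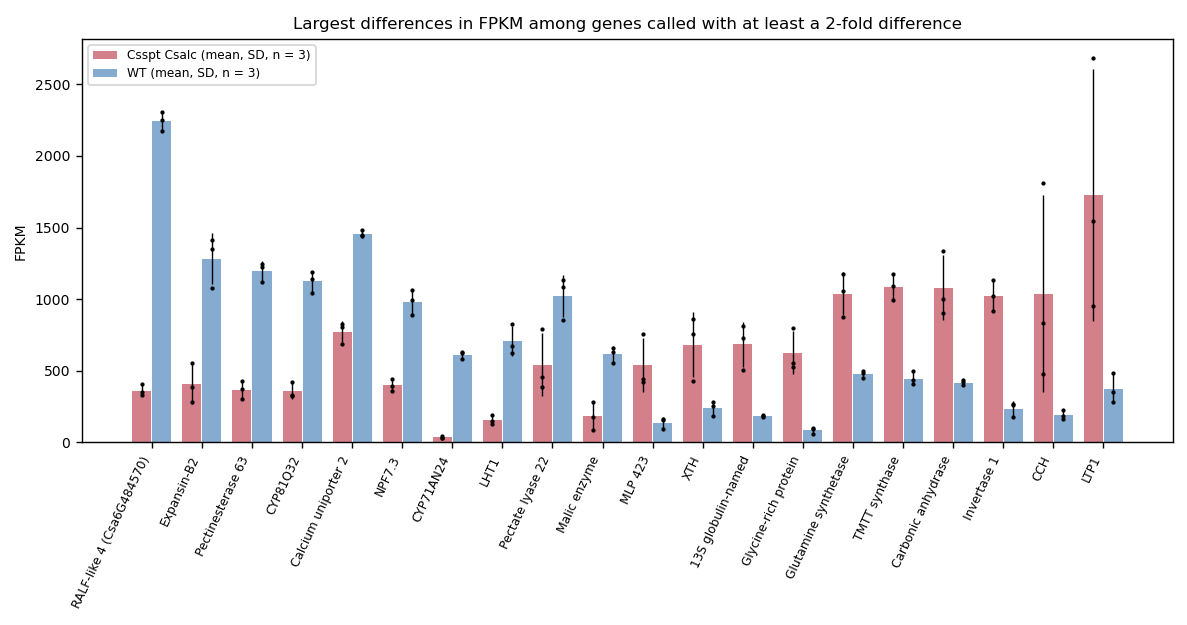
FPKM (linear axis from 0) of the 10 falls and 10 rises with the largest difference in mean FPKM. They were drawn from genes with an informative protein name that were called with at least a 2-fold difference. Bars are means, error bars SD (n = 3), and points the 3 libraries of Csspt Csalc (left bar) and WT (right bar). The RALF-like 4 gene Csa6G484570 shows the largest fall and lipid-transfer protein 1 the largest rise.

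Genes named for regulators of the transmitting tract in Arabidopsis were among those that fell. The zinc finger gene WIP2 (Csa3G810580), named for the Arabidopsis factor also known as NO TRANSMITTING TRACT, had 8.06, 5.78 and 4.83 CPM in the double mutant, against 45.0, 45.4 and 45.5 CPM in WT (log2 fold change -2.86 ± 0.18, edgeR adjusted p = 0.000118). The bHLH factor BEE 3 (Csa1G024150), whose Arabidopsis family includes a factor of transmitting tract growth, had 174, 117 and 110.1 CPM in the double mutant, against 511, 565 and 574 CPM in WT (log2 fold change -2.04 ± 0.18, edgeR adjusted p = 0.000299). Both were tightly grouped in WT and low in all double mutant libraries. The style factor SHI RELATED SEQUENCE 1 (Csa6G504650) had 8.04, 6.88 and 4.92 CPM in the double mutant, against 14.4, 12.6 and 14.9 CPM in WT (log2 fold change -1.08 ± 0.19, edgeR adjusted p = 0.00472). Every double mutant library of this gene was below every WT library. Other carpel regulators rose. One of 2 AGAMOUS-named genes (Csa1G467100), a floral organ identity factor of the MADS family, had 14.8, 12.8 and 18.7 CPM in the double mutant, against 4.19, 2.81 and 3.45 CPM in WT (log2 fold change 2.14 ± 0.21, edgeR adjusted p = 0.000446). YABBY 4 (Csa3G033810), of a family that sets organ polarity, had 47.9, 23.1 and 23.3 CPM in the double mutant, against 8.63, 9.34 and 8.96 CPM in WT (log2 fold change 1.81 ± 0.29, edgeR adjusted p = 0.0031). Of 30 tested regulators of the carpel and transmitting tract, 5 rose (3 to 5 with 1 library left out, fewest without Csspt Csalc library 2) and 7 fell (4 to 8, fewest without Csspt Csalc library 2), with a median log2 fold change of -0.08. In share called, the list is near all genes. With limma on log2(FPKM + 1), 8 of them rose and 4 fell, which turns the balance of the list. YABBY 4 did not pass in the fit of all 12 libraries (edgeR adjusted p = 0.124).

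Other transcription factor families changed in part. Of 48 tested NAC factors, 20 rose (16 to 19 with 1 library left out) and 5 fell (4 to 6), with a median log2 fold change of 0.26. NAC56 (Csa3G100800), a family member known from seeds, fell most, with 4.07, 6.46 and 3.60 CPM in the double mutant, against 158, 165 and 149 CPM in WT (log2 fold change -5.06 ± 0.22, edgeR adjusted p = 3.62e-05). NAC86 (Csa5G324000), which in Arabidopsis directs the loss of the nucleus in sieve elements, had 18.7, 10.2 and 11.7 CPM in the double mutant, against 0.712, 1.0 and 0.709 CPM in WT (log2 fold change 4.06 ± 0.30, edgeR adjusted p = 0.000173). The other NAC86 gene (Csa1G032410) had 6.09, 4.33 and 4.02 CPM in the double mutant, against 0.598, 0.625 and 0.322 CPM in WT (log2 fold change 3.21 ± 0.31, edgeR adjusted p = 0.000459). NAC56 and the NAC86 genes moved in opposite directions with no overlap. Of 24 tested MADS factors, 2 rose (1 to 2 with 1 library left out, fewest without Csspt Csalc library 2) and 7 fell (6 to 8), with a median log2 fold change of -0.22. In all, 37.5% of them were called, near the 36.1% of all genes. AGL30 (Csa5G605750), a MADS factor of pollen in Arabidopsis, had 2.50, 4.80 and 5.59 CPM in the double mutant, against 30.1, 27.4 and 25.9 CPM in WT (log2 fold change -2.70 ± 0.27, edgeR adjusted p = 0.000518). AGL15 (Csa3G686200), known from embryos and floral ageing, had 4.62, 3.88 and 4.05 CPM in the double mutant, against 14.9, 14.1 and 19.1 CPM in WT (log2 fold change -1.94 ± 0.16, edgeR adjusted p = 0.000261). Both fell, as did the summed pollen markers, whose part in this result was not tested. With limma on log2(FPKM + 1) and no filter, 7 MADS factors rose and 6 fell.

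Among the bHLH factors, the family to which SPATULA belongs, PIF1 (Csa7G333400), a phytochrome-interacting factor that represses light responses, had 14.5, 12.4 and 10.8 CPM in the double mutant, against 42.5, 55.4 and 46.7 CPM in WT (log2 fold change -1.94 ± 0.15, edgeR adjusted p = 0.000175). The factor bHLH149 (Csa1G555600) had 13.7, 12.3 and 9.89 CPM in the double mutant, against 45.2, 47.1 and 41.6 CPM in WT (log2 fold change -1.90 ± 0.13, edgeR adjusted p = 0.000148). Both were lower in each double mutant library than in any WT library. The factor bHLH041 (Csa1G589140) went the other way, with 11.3, 10.8 and 12.7 CPM in the double mutant, against 3.675, 1.094 and 2.965 CPM in WT. Its log2 fold change was 2.165 ± 0.37 (edgeR adjusted p = 0.00419). Of 96 tested bHLH factors, 28 rose (17 to 24 with 1 library left out, fewest without WT library 3) and 19 fell (16 to 22), with a median log2 fold change of 0.08, and the fit of all 12 libraries gave 3 higher and 8 lower. From the WRKY family, WRKY 51 (Csa2G297180), of a family tied to defence, had 63.7, 56.7 and 63.7 CPM in the double mutant, against 14.7, 14.8 and 14.8 CPM in WT (log2 fold change 2.06 ± 0.09, edgeR adjusted p = 3.1e-05). The 3 double mutant and 3 WT libraries of WRKY 51 were each tightly grouped. Of 47 tested WRKY factors, 16 rose (14 to 21 with 1 library left out) and 6 fell (3 to 6, fewest without WT library 1), with a median log2 fold change of 0.55, and limma on log2(FPKM + 1) called 3 lower. The ethylene response factor RAP2-3 (Csa6G318160) had 21.8, 21.3 and 26.8 CPM in the double mutant, against 5.30, 3.72 and 4.35 CPM in WT (log2 fold change 2.38 ± 0.17, edgeR adjusted p = 0.000158), without overlap. Of 79 tested ethylene response factors, 17 rose (11 to 15 with 1 library left out, fewest without Csspt Csalc library 1) and 17 fell (10 to 17, fewest without WT library 1), with a median log2 fold change of 0.15. Of 70 tested MYB factors, 17 rose (13 to 19 with 1 library left out) and 14 fell (11 to 13), with a median log2 fold change of 0.15. Myb-related protein 306 (Csa1G033200) had 5.49, 3.67 and 3.18 CPM in the double mutant, against 0.285, 0.594 and 0.709 CPM in WT (log2 fold change 2.96 ± 0.38, edgeR adjusted p = 0.00129). Of 83 tested homeodomain factors, 25 rose (15 to 20 with 1 library left out, fewest without WT library 1) and 15 fell (11 to 19), with a median log2 fold change of 0.04. The factor bHLH041 and WRKY 51 did not pass in the fit of all 12 libraries (edgeR adjusted p from 0.173 to 0.193).

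Auxin response genes fell more often than they rose. Of 43 tested Aux/IAA and auxin response factor (ARF) genes, 7 rose (5 to 7 with 1 library left out) and 24 fell (20 to 26), with a median log2 fold change of -0.59, against 0.03 for all genes. That is 72.1% called, against 36.1% of all genes tested. The 46 genes of the list summed to 1638 to 1866 FPKM in the double mutant and 2564 to 2904 FPKM in WT. Aux/IAA proteins are repressors whose genes are themselves switched on by auxin. IAA29 (Csa1G231530) had 12.5, 17.4 and 17.6 CPM in the double mutant, against 80.2, 68.8 and 71.6 CPM in WT (log2 fold change -2.22 ± 0.15, edgeR adjusted p = 0.000138). Auxin-induced protein 22D (Csa7G378530) had 84.2, 38.5 and 56.1 CPM in the double mutant, against 216, 294 and 269 CPM in WT (log2 fold change -2.12 ± 0.27, edgeR adjusted p = 0.00133). IAA26 (Csa3G895090) went the other way, with 6.46, 6.12 and 4.24 CPM in the double mutant, against 2.28, 1.0 and 1.26 CPM in WT (log2 fold change 1.88 ± 0.33, edgeR adjusted p = 0.0046). In all 3 genes the libraries of the 2 groups did not overlap. The fit of all 12 libraries called 0 higher and 8 lower. Auxin-induced protein 22D and IAA26 did not pass in the fit of all 12 libraries (edgeR adjusted p from 0.1 to 0.18).

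**Figure D5:**
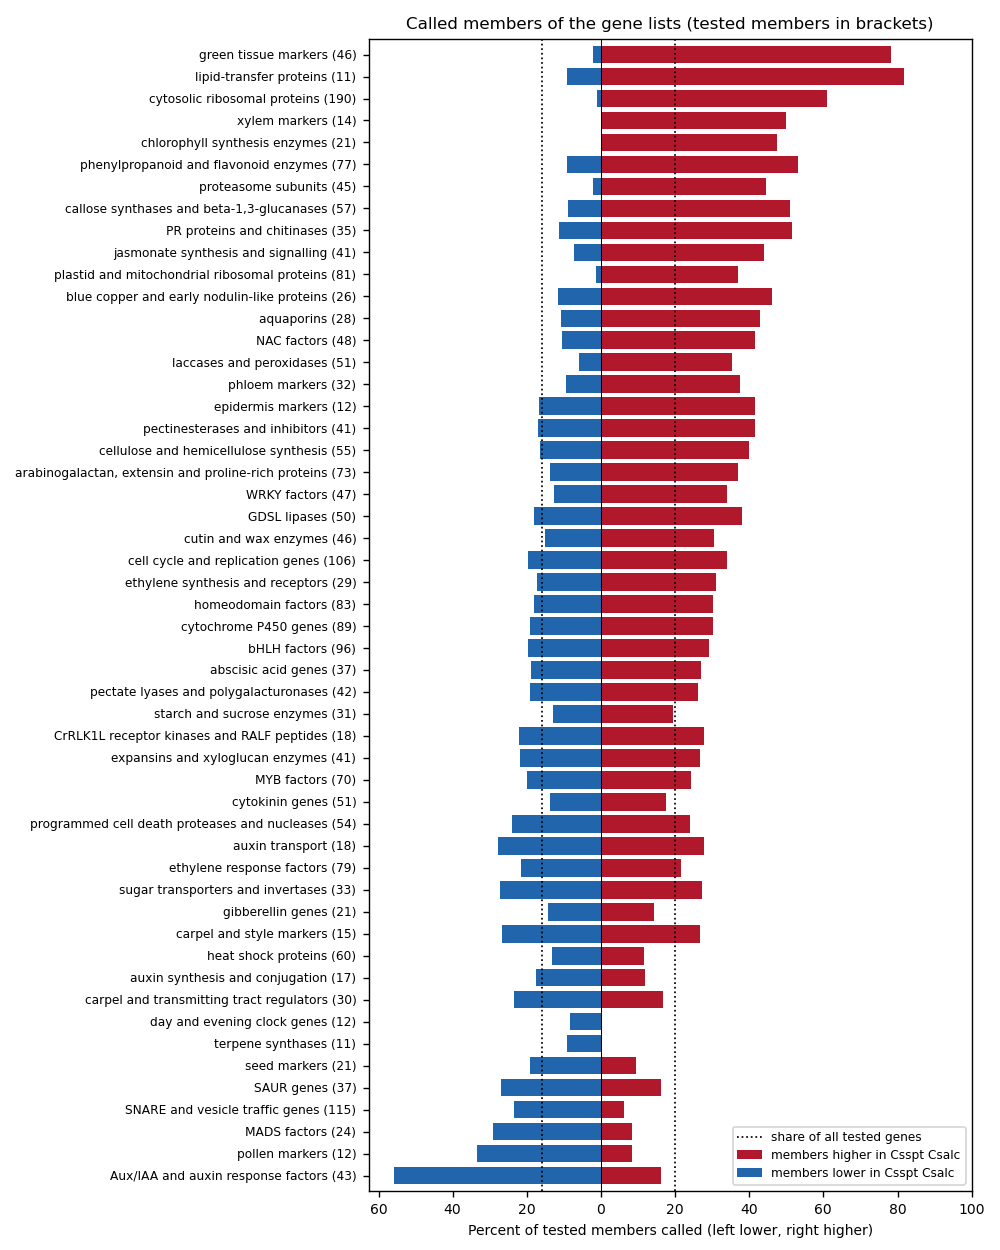
Percent of the tested members of each gene list with at least 11 of them (tested members in brackets) called lower (blue, to the left) or higher (red, to the right) in the double mutant than in WT; dotted lines mark the 16.0% lower and 20.1% higher among all 18380 tested genes. Green tissue markers and lipid-transfer proteins reach farthest to the right, and Aux/IAA and auxin response factors farthest to the left.

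Carriers that move auxin between cells changed in both directions, and those with the largest changes fell. The efflux carrier PIN2 (Csa1G427480) had 1.40, 0.791 and 0.422 CPM in the double mutant, against 23.9, 26.7 and 19.6 CPM in WT (log2 fold change -4.73 ± 0.36, edgeR adjusted p = 0.000181). The efflux carrier PIN3 (Csa5G576590) had 121, 58.2 and 81.6 CPM in the double mutant, against 212, 264 and 249 CPM in WT (log2 fold change -1.47 ± 0.24, edgeR adjusted p = 0.0037). The influx carrier-like protein 3 (Csa5G374730) had 1.87, 3.38 and 3.46 CPM in the double mutant, against 14.5, 13.4 and 13.6 CPM in WT (log2 fold change -2.26 ± 0.23, edgeR adjusted p = 0.00058). PIN2 was nearly lost, and PIN3 and the influx carrier-like protein 3 were lower in every double mutant library than in any WT library. Of 18 tested auxin transport genes, 5 rose (2 to 4 with 1 library left out, fewest without Csspt Csalc library 1) and 5 fell (5 to 6), with a median log2 fold change of 0.04. YUCCA6 (Csa2G375750), an enzyme of auxin synthesis, had 26.4, 35.4 and 39.8 CPM in the double mutant, against 66.3, 68.2 and 73.3 CPM in WT (log2 fold change -1.03 ± 0.15, edgeR adjusted p = 0.00201). Of 17 tested genes of auxin synthesis and conjugation, 2 rose (0 to 2 with 1 library left out, fewest without Csspt Csalc library 1) and 3 fell (1 to 4, fewest without Csspt Csalc library 3), with a median log2 fold change of -0.46. In all, 29.4% of these 17 were called, against 36.1% of all genes. With limma on log2(FPKM + 1), 3 of these rose and 1 fell. Of 37 tested SAUR genes, a family of small auxin-responsive growth genes, 6 rose (1 to 6 with 1 library left out, fewest without WT library 1) and 10 fell (8 to 10), with a median log2 fold change of 0.00. The influx carrier-like protein 3 and YUCCA6 did not pass in the fit of all 12 libraries (edgeR adjusted p from 0.114 to 0.119).

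Genes of other hormones changed in both directions. Histidine kinase 4 (Csa5G549170), a cytokinin receptor, had 4.32, 7.31 and 8.77 CPM in the double mutant, against 29.2, 19.6 and 27.3 CPM in WT (log2 fold change -1.90 ± 0.27, edgeR adjusted p = 0.00196). Adenylate isopentenyltransferase 5 (Csa6G237640), which makes cytokinin, had 4.17, 3.59 and 1.97 CPM in the double mutant, against 0.171, 0 and 0.0967 CPM in WT (log2 fold change 5.10 ± 0.64, edgeR adjusted p = 0.00125). The groups did not overlap in either gene, and the transferase was close to off in WT. Of 51 tested cytokinin genes, 9 rose (6 to 8 with 1 library left out) and 7 fell (5 to 7), with a median log2 fold change of 0.06, a share called near that of all genes. NCED2 (Csa1G435760), of the enzyme family that limits abscisic acid synthesis, had 144, 189.6 and 176 CPM in the double mutant, against 449.6, 489 and 539 CPM in WT (log2 fold change -1.54 ± 0.12, edgeR adjusted p = 0.000228). An abscisic acid and environmental stress-inducible protein gene (Csa7G037590) rose. It had 147, 107.6 and 105.5 CPM in the double mutant, against 11.2, 20.4 and 20.9 CPM in WT. Its log2 fold change was 2.78 ± 0.26 (edgeR adjusted p = 0.000379). Of 37 tested genes of abscisic acid synthesis and response, 10 rose (6 to 11 with 1 library left out, fewest without WT library 3) and 7 fell (4 to 9, fewest without WT library 1), with a median log2 fold change of -0.06. ACC oxidase 5 (Csa4G361270), an enzyme that forms ethylene and the most abundant of its list, had 2829, 2605 and 2444 CPM in the double mutant, against 1562, 1707 and 1570.0 CPM in WT (log2 fold change 0.70 ± 0.10, edgeR adjusted p = 0.00197). ACC oxidase 1 (Csa6G421630) had 71.8, 55.9 and 42.8 CPM in the double mutant, against 116, 98.9 and 131 CPM in WT (log2 fold change -1.02 ± 0.19, edgeR adjusted p = 0.00587). The 2 oxidases moved in opposite directions. Of 29 tested genes of ethylene synthesis and perception, 9 rose (5 to 7 with 1 library left out, fewest without WT library 1) and 5 fell (4 to 5), with a median log2 fold change of 0.30. Gibberellin 2-beta-dioxygenase 2 (Csa7G413380), which inactivates gibberellin, had 3.32, 6.59 and 4.497 CPM in the double mutant, against 12.4, 17.5 and 13.2 CPM in WT (log2 fold change -1.58 ± 0.26, edgeR adjusted p = 0.00372). Gibberellin-regulated protein 14 (Csa3G119310) rose, with 21.6, 14.1 and 14.1 CPM in the double mutant, against 2.93, 3.19 and 4.125 CPM in WT. Its log2 fold change was 2.28 ± 0.23 (edgeR adjusted p = 0.000496). Of 21 tested gibberellin genes, 3 rose (1 to 4 with 1 library left out, fewest without WT library 1) and 3 fell (3 to 5, most without Csspt Csalc library 2), with a median log2 fold change of 0.30. In all, 28.6% of these were called, against 36.1% of all genes. Of 9 brassinosteroid genes tested edgeR called 0, DESeq2 0, and 1 gene was lower at an unadjusted p under 0.05. Leaving out 1 library, edgeR called 2 lower without Csspt Csalc library 1, 1 lower without Csspt Csalc library 3 and 1 higher without Csspt Csalc library 2. Of 41 tested genes of jasmonate synthesis and signalling, 18 rose (16 to 20 with 1 library left out) and 3 fell (2 to 8, most without Csspt Csalc library 1), with a median log2 fold change of 0.61. The 9-lipoxygenases above are members of it, and they do not make jasmonate, which starts from 13-lipoxygenases. Linoleate 13S-lipoxygenase 2-1 (Csa4G288070), in the table at 0 in WT, averaged only 0.343 FPKM in the double mutant. Adenylate isopentenyltransferase 5, ACC oxidase 5, ACC oxidase 1 and gibberellin 2-beta-dioxygenase 2 did not pass in the fit of all 12 libraries (edgeR adjusted p from 0.051 to 0.6). Adenylate isopentenyltransferase 5 had a log2 fold change of 5.99 without WT library 1.

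Enzymes that cut or modify pectin changed in both directions. Pectate lyase 5 (Csa2G350210), which cleaves pectin, had 2.07, 1.56 and 1.52 CPM in the double mutant, against 68.1, 50.7 and 53.5 CPM in WT (log2 fold change -5.06 ± 0.18, edgeR adjusted p = 3.1e-05). Rhamnogalacturonate lyase B (Csa3G892760), which cleaves branched pectin, had 21.5, 13.5 and 14.5 CPM in the double mutant, against 249.9, 241 and 240.0 CPM in WT (log2 fold change -3.88 ± 0.18, edgeR adjusted p = 4.2e-05). An exopolygalacturonase (Csa4G076240) had 0.175, 0.343 and 0.534 CPM in the double mutant, against 2.59, 3.16 and 2.64 CPM in WT (log2 fold change -2.997 ± 0.38, edgeR adjusted p = 0.0013). These 3 were all low in the double mutant, with no overlap. The polygalacturonase At1g48100 (Csa3G838140) had 45.1, 21.97 and 13.9 CPM in the double mutant, against 1.34, 4.44 and 2.67 CPM in WT (log2 fold change 3.27 ± 0.54, edgeR adjusted p = 0.0037), the opposite direction. Its libraries spread widely in the double mutant and still lay above WT. Of 42 tested pectate lyases and polygalacturonases, 11 rose (9 to 12 with 1 library left out) and 8 fell (6 to 10), with a median log2 fold change of 0.10. Pectinesterase 67 (Csa3G166360) had 18.2, 16.1 and 18.9 CPM in the double mutant, against 116, 83.6 and 100.3 CPM in WT (log2 fold change -2.50 ± 0.14, edgeR adjusted p = 8.25e-05). Pectinesterase 15 (Csa3G745520) had 1.32, 0.633 and 1.32 CPM in the double mutant, against 10.2, 6.62 and 6.09 CPM in WT (log2 fold change -2.80 ± 0.33, edgeR adjusted p = 0.00101). Pectinesterase 1 (Csa7G343870) went the other way, with 29.65, 38.3 and 8.88 CPM in the double mutant, against 0.826, 6.22 and 3.255 CPM in WT. Its log2 fold change was 2.91 ± 0.73 (edgeR adjusted p = 0.0182). Of 41 tested pectinesterases and their inhibitors, 17 rose (14 to 15 with 1 library left out) and 7 fell (6 to 8), with a median log2 fold change of 0.36, and the fit of all 12 libraries gave 3 higher and 4 lower. An exopolygalacturonase and pectinesterase 1 did not pass in the fit of all 12 libraries (edgeR adjusted p from 0.0611 to 0.167). The polygalacturonase At1g48100 had a log2 fold change of 2.67 without Csspt Csalc library 1. Pectinesterase 1 had a log2 fold change of 3.67 without WT library 2. It lost its call without Csspt Csalc library 2 (edgeR adjusted p = 0.0526) and without WT library 3 (edgeR adjusted p = 0.0686).

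Expansins and xyloglucan enzymes also changed in both directions. Expansin-A11 (Csa2G346000) had 94.6, 64.4 and 77.5 CPM in the double mutant, against 598, 659 and 590.1 CPM in WT (log2 fold change -2.97 ± 0.15, edgeR adjusted p = 5.63e-05). Expansin-B3 (Csa7G047420) had 17.4, 5.72 and 15.8 CPM in the double mutant, against 1.54, 1.5 and 0.709 CPM in WT (log2 fold change 3.37 ± 0.48, edgeR adjusted p = 0.00203). A xyloglucan endotransglucosylase gene (Csa4G000010), of enzymes that cut and rejoin wall glucans, had 11.4, 7.49 and 7.14 CPM in the double mutant, against 0.741, 0.5 and 0.677 CPM in WT (log2 fold change 3.75 ± 0.27, edgeR adjusted p = 0.000167). Expansin-A11 was high in WT, and the other 2 were near the low end there. Of 41 tested expansins and xyloglucan enzymes, 11 rose (8 to 11 with 1 library left out) and 9 fell (8 to 12), with a median log2 fold change of 0.12. Cellulose synthase-like D5 (Csa4G002510), of a family that makes wall glucan in tip-growing cells, had 20.7, 7.31 and 10.96 CPM in the double mutant, against 0.655, 1.12 and 1.03 CPM in WT (log2 fold change 3.79 ± 0.44, edgeR adjusted p = 0.000874). Of 55 tested genes of cellulose and hemicellulose synthesis, 22 rose (17 to 21 with 1 library left out) and 9 fell (5 to 8, fewest without WT library 1), with a median log2 fold change of 0.42.

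Enzymes that make or cut callose and structural wall proteins rose more often than they fell. Of 57 tested callose synthases and beta-1,3-glucanases, 29 rose (23 to 27 with 1 library left out) and 5 fell (3 to 7, fewest without WT library 3), with a median log2 fold change of 0.66. In all, 59.6% were called, against 36.1% of all genes. Glucan endo-1,3-beta-glucosidase 6 (Csa5G561790) had 12.2, 7.70 and 8.54 CPM in the double mutant, against 0.798, 1.03 and 0.677 CPM in WT (log2 fold change 3.5 ± 0.26, edgeR adjusted p = 0.000174). Glucan endo-1,3-beta-glucosidase 14 (Csa4G005530) had 13.7, 8.68 and 7.05 CPM in the double mutant, against 0.997, 1.12 and 0.838 CPM in WT (log2 fold change 3.31 ± 0.30, edgeR adjusted p = 0.000341). Both genes were near 1 CPM or lower in WT. Proline-rich protein 4 (Csa5G642130) had 19.6, 9.05 and 7.53 CPM in the double mutant, against 0.541, 0.625 and 0.548 CPM in WT (log2 fold change 4.39 ± 0.43, edgeR adjusted p = 0.000464). One extensin gene (Csa7G322600), of the wall glycoproteins that stiffen the wall, had 309.6, 259 and 124.6 CPM in the double mutant, against 15.6, 7.97 and 13.7 CPM in WT (log2 fold change 4.22 ± 0.40, edgeR adjusted p = 0.000406). Another extensin gene (Csa3G047810) had 1.07, 0.897 and 0.984 CPM in the double mutant, against 7.26, 11.3 and 9.86 CPM in WT (log2 fold change -3.26 ± 0.22, edgeR adjusted p = 0.000139). The extensins moved in opposite directions without overlap. Of 73 tested arabinogalactan, extensin and proline-rich proteins, 27 rose (22 to 24 with 1 library left out) and 10 fell (9 to 11), with a median log2 fold change of 0.23.

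Some secreted proteins of the stigma were nearly lost, while early nodulin-like proteins rose. STIG1 (Csa1G059710), a small secreted protein of stigmas first known from tobacco, had 0.0749, 0.396 and 0.197 CPM in the double mutant, against 4.96, 4.12 and 5.03 CPM in WT (log2 fold change -4.39 ± 0.44, edgeR adjusted p = 0.000518). Thionin-like protein 2 (Csa7G446640) had 0.175, 0.554 and 0.562 CPM in the double mutant, against 10.9, 12.2 and 12.3 CPM in WT (log2 fold change -4.78 ± 0.34, edgeR adjusted p = 0.000162). Both were present in WT and nearly absent in the double mutant. A second gene named thionin-like protein 2 (CsaUNG012530), by far the most abundant of its list, averaged 8742 ± 1357 FPKM in the double mutant and 8166 ± 2055 FPKM in WT (log2 fold change -0.02 ± 0.20, edgeR adjusted p = 0.958) and was not called. Of 12 genes in the list of stigma-specific and defensin-like proteins, 5 could be tested, of which 2 fell and 1 rose, a call lost without WT library 1, 2 or 3. Early nodulin-like protein 3 (Csa3G078280), a copper-protein relative held at the cell surface, had 111, 65.1 and 67.2 CPM in the double mutant, against 6.81, 7.47 and 7.35 CPM in WT (log2 fold change 3.49 ± 0.22, edgeR adjusted p = 0.000129). Early nodulin-like protein 1 (Csa3G423800) had 15.5, 11.4 and 10.3 CPM in the double mutant, against 1.25, 1.09 and 1.29 CPM in WT (log2 fold change 3.35 ± 0.21, edgeR adjusted p = 0.000118). Of 26 tested blue copper and early nodulin-like proteins, 12 rose (9 to 11 with 1 library left out) and 3 fell (2 to 4), with a median log2 fold change of 0.55. STIG1 had a log2 fold change of -5.11 without Csspt Csalc library 2.

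Lipid-transfer proteins mostly rose. Of 11 tested lipid-transfer proteins, 9 rose (5 to 9 with 1 library left out, fewest without WT library 2) and 1 fell (0 to 2, fewest without Csspt Csalc library 2 and most without Csspt Csalc library 1), with a median log2 fold change of 2.08. In all, 90.9% were called in either direction, against 36.1% of all genes. The list holds 26 genes, and the other 15 had too few counts to be tested. Beside lipid-transfer protein 1 and DIR1, a non-specific lipid-transfer protein (Csa4G333620) had 179, 93.2 and 85.0 CPM in the double mutant, against 11.8, 13.1 and 17.7 CPM in WT (log2 fold change 3.07 ± 0.32, edgeR adjusted p = 0.00056). Non-specific lipid-transfer protein 2 (Csa1G042560) had 9.71, 8.68 and 13.6 CPM in the double mutant, against 2.48, 1.12 and 1.03 CPM in WT (log2 fold change 2.77 ± 0.36, edgeR adjusted p = 0.00138). The GPI-anchored lipid-transfer protein 1 (Csa5G589340) had 9.93, 8.68 and 3.48 CPM in the double mutant, against 0.712, 1.84 and 0.934 CPM in WT (log2 fold change 2.67 ± 0.48, edgeR adjusted p = 0.0053). The smaller rises, from 0.49 to 0.73 on the log2 scale in CsaUNG028560, Csa3G035840 and Csa7G061200, the rise of Csa3G250900 by 3.05 and the fall of Csa4G135200 lost their calls when single libraries were left out. A non-specific lipid-transfer protein, the GPI-anchored lipid-transfer protein 1, CsaUNG028560, Csa3G035840, Csa7G061200 and Csa4G135200 did not pass in the fit of all 12 libraries (edgeR adjusted p from 0.0693 to 0.599). CsaUNG028560 lost its call without WT library 1 (edgeR adjusted p = 0.0558), without WT library 2 (edgeR adjusted p = 0.0662) and without WT library 3 (edgeR adjusted p = 0.0534). Csa3G035840 lost its call without WT library 1 (edgeR adjusted p = 0.0519) and without WT library 2 (edgeR adjusted p = 0.057). Csa7G061200 lost its call without Csspt Csalc library 2 (edgeR adjusted p = 0.0963), without WT library 1 (edgeR adjusted p = 0.077), without WT library 2 (edgeR adjusted p = 0.128) and without WT library 3 (edgeR adjusted p = 0.131). Csa3G250900 had a log2 fold change of 2.44 without WT library 1 and 3.79 without WT library 3. Csa3G250900 lost its call without WT library 2 (edgeR adjusted p = 0.0518). Csa4G135200 had a log2 fold change of -2.27 without WT library 3. Csa4G135200 lost its call without Csspt Csalc library 2 (edgeR adjusted p = 0.0607), without Csspt Csalc library 3 (edgeR adjusted p = 0.0641), without WT library 1 (edgeR adjusted p = 0.0601) and without WT library 3 (edgeR adjusted p = 0.0765).

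Surface lipid genes were mixed. CYP86A22 (Csa5G153010), named for the fatty acid hydroxylase of petunia stigmas, had 126, 79.8 and 91.2 CPM in the double mutant, against 659.5, 587 and 699 CPM in WT (log2 fold change -2.71 ± 0.18, edgeR adjusted p = 0.000136). Long chain acyl-CoA synthetase 1 (Csa3G535120), an enzyme of wax synthesis, had 7.51, 6.88 and 6.35 CPM in the double mutant, against 0.285, 0.375 and 0.548 CPM in WT (log2 fold change 4.10 ± 0.26, edgeR adjusted p = 0.000113). HOTHEAD (Csa3G848300), an enzyme of cutin synthesis, had 33.1, 16.2 and 18.9 CPM in the double mutant, against 1.28, 3.16 and 1.93 CPM in WT (log2 fold change 3.42 ± 0.39, edgeR adjusted p = 0.000854). The transporter ABCG32 (Csa2G005890), which exports cutin precursors, had 68.9, 112 and 75.3 CPM in the double mutant, against 13.8, 14.8 and 13.3 CPM in WT (log2 fold change 2.62 ± 0.19, edgeR adjusted p = 0.000167). CYP86A22 was the most abundant of these in WT and the only one of the 4 to fall. Of 46 tested cutin and wax enzymes, 14 rose (12 to 14 with 1 library left out) and 7 fell (5 to 7), with a median log2 fold change of 0.34. Of 50 tested GDSL lipases, 19 rose (16 to 20 with 1 library left out) and 9 fell (7 to 9), with a median log2 fold change of 0.71, among them GDSL lipase At5g33370 (Csa1G665920) with 11.7, 7.23 and 5.82 CPM in the double mutant, against 0.342, 0.719 and 0.451 CPM in WT (log2 fold change 4.03 ± 0.38, edgeR adjusted p = 0.000392).

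Phenylpropanoid and flavonoid enzymes, which make lignin, flavonoids and related phenolics, rose more often than they fell. Of 77 tested members, 41 rose (35 to 44 with 1 library left out) and 7 fell (5 to 7), with a median log2 fold change of 0.79, against 0.03 for all genes. Phenylalanine ammonia-lyase (Csa6G405960), the entry enzyme, had 8.14, 4.83 and 5.06 CPM in the double mutant, against 0.541, 0.844 and 0.838 CPM in WT (log2 fold change 3.02 ± 0.30, edgeR adjusted p = 0.00052). 4-coumarate-CoA ligase 2 (Csa7G430250) had 12.1, 9.23 and 12.2 CPM in the double mutant, against 1.45, 1.72 and 2.06 CPM in WT (log2 fold change 2.68 ± 0.20, edgeR adjusted p = 0.000173). Caffeic acid 3-O-methyltransferase (Csa3G747630), of lignin synthesis, had 6.71, 5.93 and 5.23 CPM in the double mutant, against 1.03, 0.938 and 1.10 CPM in WT (log2 fold change 2.54 ± 0.19, edgeR adjusted p = 0.000175). The lowest double mutant library exceeded the highest WT library in each. Of 51 tested laccases and peroxidases, enzymes that polymerise lignin among other roles, 18 rose (12 to 15 with 1 library left out) and 3 fell (2 to 5, most without Csspt Csalc library 1), with a median log2 fold change of 0.60. In all, 41.2% of them were called, against 36.1% of all genes. Peroxidase 10 (Csa2G235100) had 7.16, 4.33 and 2.44 CPM in the double mutant, against 0.313, 0.344 and 0.419 CPM in WT (log2 fold change 3.69 ± 0.45, edgeR adjusted p = 0.00111). 4-coumarate-CoA ligase 2, caffeic acid 3-O-methyltransferase and peroxidase 10 did not pass in the fit of all 12 libraries (edgeR adjusted p from 0.0635 to 0.113).

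Terpene synthases, which make volatile scent and defence compounds, were mostly not called. Of 11 tested, edgeR called 0 higher and 1 lower, and 2 were higher at an unadjusted p under 0.05. DESeq2 called 1 higher. Without Csspt Csalc library 1, edgeR called 1 higher and 2 lower, and without WT library 2 it called 1 higher. In the gene that fell, a gamma-cadinene synthase gene (Csa3G097540), there were 0.998, 0.501 and 0.871 CPM in the double mutant, against 9.74, 11.9 and 12.1 CPM in WT (log2 fold change -3.82 ± 0.26, edgeR adjusted p = 0.000139). The most abundant members were not called. A nerolidol synthase gene (Csa1G066550) averaged 1242 ± 254 FPKM in the double mutant and 1550.0 ± 194 FPKM in WT (log2 fold change -0.43 ± 0.18, edgeR adjusted p = 0.106). Alpha-farnesene synthase (Csa3G095040) averaged 875 ± 102 FPKM in the double mutant and 669 ± 14.1 FPKM in WT (log2 fold change 0.28 ± 0.11, edgeR adjusted p = 0.0926). With limma on log2(FPKM + 1), 3 of the synthases rose and 1 fell. Of 89 tested cytochrome P450 genes, 27 rose (17 to 24 with 1 library left out, fewest without WT library 2) and 17 fell (11 to 16, fewest without WT library 3), with a median log2 fold change of 0.21.

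Proteases tied to programmed cell death changed in opposite directions. XCP1 and XCP2 are, in Arabidopsis, cysteine proteases that clear the contents of xylem vessel cells. XCP1 (Csa7G027790) had 37.1, 19.0 and 22.6 CPM in the double mutant, against 3.02, 1.09 and 2.03 CPM in WT (log2 fold change 3.67 ± 0.39, edgeR adjusted p = 0.00067). XCP2 (Csa4G664420) had 9.76, 4.67 and 6.55 CPM in the double mutant, against 0.484, 0 and 0.193 CPM in WT (log2 fold change 4.89 ± 0.68, edgeR adjusted p = 0.00183). Metacaspase-9 (Csa4G416430), which acts in the same cells in Arabidopsis, had 32.3, 23.2 and 25.4 CPM in the double mutant, against 4.16, 3.34 and 4.35 CPM in WT (log2 fold change 2.77 ± 0.17, edgeR adjusted p = 0.000113). These 3 rose with the xylem markers, of which edgeR called 7 of 14 tested higher and 0 lower, at a median log2 fold change of 1.42. None was lower at an unadjusted p under 0.05 or in DESeq2, while edgeR called 1 lower without WT library 2, and 1 of the 18 had no count in any library. Laccase-11 (Csa6G445190), a lignin enzyme of that list, had 15.3, 6.65 and 10.6 CPM in the double mutant, against 0.769, 1.16 and 0.838 CPM in WT (log2 fold change 3.56 ± 0.35, edgeR adjusted p = 0.00049). The summed level of the xylem list stayed low, at 28.6 to 38.2 FPKM in the double mutant and 20.4 to 21.7 FPKM in WT, and its part in the protease result was not tested. The cysteine protease RD19A (Csa7G004120) had 0.674, 1.69 and 0.478 CPM in the double mutant, against 9.23, 9.66 and 6.99 CPM in WT (log2 fold change -3.18 ± 0.42, edgeR adjusted p = 0.00153). Of 54 tested proteases and nucleases of cell death, 13 rose (10 to 14 with 1 library left out) and 13 fell (9 to 13), with a median log2 fold change of 0.23. XCP1, XCP2 and laccase-11 did not pass in the fit of all 12 libraries (edgeR adjusted p from 0.0576 to 0.0972). XCP2 had a log2 fold change of 6.14 without WT library 1. The cysteine protease RD19A had a log2 fold change of -3.89 without Csspt Csalc library 2.

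Phloem genes gave a mixed picture. Of 32 tested, 12 rose and 3 fell, 46.9% called, against 36.1% of all genes. The rises were led by genes named SIEVE ELEMENT OCCLUSION B. The copy Csa2G193340 had 27.3, 14.9 and 13.6 CPM in the double mutant, against 0.570, 0.219 and 0.226 CPM in WT (log2 fold change 5.74 ± 0.45, edgeR adjusted p = 0.000195). The copy Csa2G199900 had 110.0, 82.4 and 79.6 CPM in the double mutant, against 13.8, 17.1 and 6.86 CPM in WT (log2 fold change 2.84 ± 0.31, edgeR adjusted p = 0.000754). The copy Csa2G193380 had 47.0, 38.5 and 33.7 CPM in the double mutant, against 8.75, 7.88 and 5.54 CPM in WT (log2 fold change 2.42 ± 0.20, edgeR adjusted p = 0.000228). These copies are near-relatives, and reads may have been shared among them. The summed phloem level overlapped between the groups, at 764 to 848 FPKM in the double mutant and 751 to 786 FPKM in WT. The copy Csa2G199900 and the copy Csa2G193380 did not pass in the fit of all 12 libraries (edgeR adjusted p from 0.0602 to 0.069). The copy Csa2G193340 had a log2 fold change of 6.36 without WT library 1.

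Genes that move or split sugar changed in both directions. Of 33 tested sugar transporters and invertases, 9 rose (4 to 7 with 1 library left out, fewest without WT library 2) and 9 fell (8 to 9), with a median log2 fold change of -0.06. Beside cell wall invertase, sucrose synthase 6 (Csa1G031890) had 60.3, 34.6 and 41.0 CPM in the double mutant, against 12.7, 11.4 and 11.1 CPM in WT (log2 fold change 1.95 ± 0.20, edgeR adjusted p = 0.000595). The sugar exporter SWEET12 (Csa1G051720) had 8.09, 5.64 and 6.04 CPM in the double mutant, against 22.7, 38.2 and 21.6 CPM in WT (log2 fold change -2.06 ± 0.25, edgeR adjusted p = 0.00117). Of 31 tested starch and sucrose enzymes, 6 rose (4 to 6 with 1 library left out) and 4 fell (2 to 5, fewest without Csspt Csalc library 2), with a median log2 fold change of -0.05, a share called near that of all genes. The inactive beta-amylase 4 (Csa3G047820) had 1.77, 3.64 and 4.13 CPM in the double mutant, against 27.7, 36.1 and 28.7 CPM in WT (log2 fold change -3.28 ± 0.29, edgeR adjusted p = 0.000345). Of 28 tested aquaporins, 12 rose (9 to 11 with 1 library left out) and 3 fell (1 to 3, fewest without Csspt Csalc library 2), with a median log2 fold change of 0.69. The aquaporin PIP2-1 (Csa5G623360), a water channel of the plasma membrane, had 51.3, 31.9 and 28.6 CPM in the double mutant, against 2.71, 1.78 and 2.19 CPM in WT (log2 fold change 4.06 ± 0.28, edgeR adjusted p = 0.00014), with no overlap. The sugar exporter SWEET12 did not pass in the fit of all 12 libraries (edgeR adjusted p = 0.219).

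Defence-related proteins rose more often than they fell, while their summed level was lower in the double mutant. The 64 genes of the list summed to 667 to 759 FPKM in the double mutant and 850 to 960 FPKM in WT. Of 35 tested pathogenesis-related proteins and chitinases, 18 rose (12 to 16 with 1 library left out) and 4 fell (3 to 4), with a median log2 fold change of 0.84. In all, 62.9% were called, against 36.1% of all genes. The thaumatin-like protein gene Csa5G604230 had 21.7, 11.2 and 12.5 CPM in the double mutant, against 0.712, 0.906 and 0.773 CPM in WT (log2 fold change 4.24 ± 0.31, edgeR adjusted p = 0.000172). The thaumatin-like protein gene Csa3G214070 had 4.92, 4.27 and 2.78 CPM in the double mutant, against 0.171, 0.281 and 0.290 CPM in WT (log2 fold change 4.004 ± 0.35, edgeR adjusted p = 0.000302). Both were under 1 CPM in every WT library. Heat shock genes, a check on stress in handling, had a smaller share called than all genes. Of 60 tested heat shock genes, 7 rose (4 to 7 with 1 library left out, fewest without WT library 1) and 8 fell (4 to 9, fewest without WT library 2), with a median log2 fold change of 0.00. The 18.1 kDa class I heat shock protein (Csa1G031780) had 60.2, 37.3 and 43.6 CPM in the double mutant, against 4.76, 4.62 and 4.93 CPM in WT (log2 fold change 3.30 ± 0.19, edgeR adjusted p = 8.64e-05).

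Genes of the protein synthesis machinery rose by small amounts. Of 190 tested cytosolic ribosomal protein genes, 116 rose (71 to 98 with 1 library left out, fewest without WT library 3) and 2 fell (1 to 3, fewest without Csspt Csalc library 1), with a median log2 fold change of 0.35, against 0.03 for all genes. Of these, 4 rose at least 2-fold, and the fit of all 12 libraries called 5 higher and 1 lower. Ribosomal protein S6 (Csa3G118140) had 15.8, 12.4 and 14.2 CPM in the double mutant, against 7.21, 5.94 and 7.83 CPM in WT (log2 fold change 1.02 ± 0.15, edgeR adjusted p = 0.00256). On the FPKM scale, where the median of all genes was 0.10, limma on log2(FPKM + 1) called 147 ribosomal genes higher and 1 lower. Of 81 tested ribosomal proteins of plastids and mitochondria, 30 rose (17 to 28 with 1 library left out, fewest without WT library 2) and 1 fell (0 to 1, fewest without Csspt Csalc library 1), with a median log2 fold change of 0.39. In all, 38.3% of them were called, near the 36.1% of all genes, of which 20.1% rose and 16.0% fell. Of 45 tested subunits of the proteasome, the complex that degrades proteins, 20 rose (12 to 18 with 1 library left out, fewest without WT library 2) and 1 fell (0 in each such fit), with a median log2 fold change of 0.20. On the FPKM scale, limma called 32 of these higher and 0 lower. Proteasome subunit beta type-7-A (Csa7G325720) had 83.8, 66.4 and 77.6 CPM in the double mutant, against 47.2, 45.8 and 50.98 CPM in WT (log2 fold change 0.66 ± 0.10, edgeR adjusted p = 0.00298). Ribosomal protein S6 did not pass in the fit of all 12 libraries (edgeR adjusted p = 0.111).

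Photosynthesis genes rose in 36 of 46 tested members, and 1 fell, or 2 without WT library 2. That is 80.4% called, against 36.1% of all genes, with a median log2 fold change of 0.87. The Rubisco small chain (Csa5G609710), of the enzyme that fixes carbon dioxide, had 194, 234 and 218 CPM in the double mutant, against 64.4, 53.9 and 42.0 CPM in WT (log2 fold change 2.01 ± 0.16, edgeR adjusted p = 0.000209). Chlorophyll a-b binding protein 3 (Csa1G445860) had 45.0, 34.5 and 23.4 CPM in the double mutant, against 5.78, 5.22 and 4.06 CPM in WT (log2 fold change 2.77 ± 0.26, edgeR adjusted p = 0.000382). Chlorophyll a-b binding protein 13 (Csa3G099680) had 59.5, 32.4 and 34.8 CPM in the double mutant, against 10.6, 14.2 and 10.3 CPM in WT (log2 fold change 1.85 ± 0.25, edgeR adjusted p = 0.00176). In all 3, every double mutant library was above every WT library. Of 21 tested enzymes of chlorophyll synthesis, 10 rose (5 to 11 with 1 library left out, fewest without WT library 3) and 0 fell (0 to 1, most without Csspt Csalc library 1), with a median log2 fold change of 0.44. Where edgeR called 0 lower, there was 1 lower at an unadjusted p under 0.05 and 1 in DESeq2. Protochlorophyllide reductase (Csa4G638340), which turns the pigment green in light, had 168, 144 and 97.4 CPM in the double mutant, against 43.7, 40.4 and 40.8 CPM in WT (log2 fold change 1.71 ± 0.19, edgeR adjusted p = 0.000692). The labels do not say how the style was trimmed, and the share of green tissue in each sample was not tested. The Rubisco small chain and chlorophyll a-b binding protein 13 did not pass in the fit of all 12 libraries (edgeR adjusted p from 0.0598 to 0.144).

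By number of calls, rises outnumbered falls among cell cycle genes, and falls outnumbered rises among vesicle traffic genes. Both lists had a lower summed level in the double mutant. In all, 53.8% of the tested cell cycle genes and 29.6% of the tested vesicle traffic genes were called, against 36.1% of all genes. Among all genes, 20.1% rose and 16.0% fell. The cell cycle list summed to 3424 to 3560 FPKM in the double mutant and 3821 to 3962 FPKM in WT. The vesicle traffic list summed to 4759 to 5106 FPKM in the double mutant and 5262 to 5394 FPKM in WT. Of 106 tested cell cycle, replication and kinesin genes, 36 rose (22 to 30 with 1 library left out, fewest without WT library 3) and 21 fell (16 to 19), with a median log2 fold change of 0.36, and the fit of all 12 libraries gave 5 higher and 7 lower. The kinesin KIN-5C (Csa3G777560), a spindle motor, had 65.4, 83.7 and 14.2 CPM in the double mutant, against 1.91, 2.56 and 2.32 CPM in WT (log2 fold change 4.59 ± 0.64, edgeR adjusted p = 0.00185). The kinesin KIN-13B (Csa1G240580) had 19.0, 15.3 and 15.7 CPM in the double mutant, against 70.5, 93.6 and 80.4 CPM in WT (log2 fold change -2.29 ± 0.14, edgeR adjusted p = 0.000101). KIN-5C was lowest in double mutant library 3, which was still above WT. Of 115 tested SNARE and vesicle traffic genes, 7 rose (4 to 7 with 1 library left out, fewest without WT library 2) and 27 fell (13 to 26, fewest without WT library 3), with a median log2 fold change of -0.11, against 0.03 for all genes. At least 2-fold, 2 of these rose and 2 fell, and limma on log2(FPKM + 1) called 15 lower. The clathrin coat protein AP180 (Csa6G421580) had 5.54, 3.96 and 2.59 CPM in the double mutant, against 13.5, 13.3 and 12.7 CPM in WT (log2 fold change -1.70 ± 0.25, edgeR adjusted p = 0.0024). The clathrin coat protein AP180 did not pass in the fit of all 12 libraries (edgeR adjusted p = 0.299).

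Clock genes were compared because their level depends on the hour of sampling, which the labels do not give. Of 7 morning genes, edgeR called 4 lower and 0 higher, and none was higher at an unadjusted p under 0.05 or in DESeq2. Without WT library 1, 2 or 3, 2 were called lower. REVEILLE 8 (Csa3G736740) had 222, 246 and 267 CPM in the double mutant, against 498, 583 and 490.0 CPM in WT (log2 fold change -1.10 ± 0.11, edgeR adjusted p = 0.000475). LHY (Csa6G095910), a core morning factor, had 1132, 1410.0 and 1453 CPM in the double mutant, against 1838, 1717 and 1838 CPM in WT (log2 fold change -0.43 ± 0.12, edgeR adjusted p = 0.0241). Summed FPKM of the morning list was 575 to 708 in the double mutant and 901 to 936 in WT. Of 12 clock genes of the day and evening 1 was called, lower, with 3 lower without Csspt Csalc library 1 and 2 lower without Csspt Csalc library 3. EARLY FLOWERING 4 (Csa5G202370), of the evening complex, had 31.4, 21.8 and 21.5 CPM in the double mutant, against 209, 216 and 227 CPM in WT (log2 fold change -3.13 ± 0.16, edgeR adjusted p = 5.63e-05). GIGANTEA (Csa6G055360) and APRR7 (Csa4G293050), of the same list, were not called, with log2 fold changes of -0.10 ± 0.09 and -0.10 ± 0.08. The part of sampling time in the other results was not tested. REVEILLE 8 and LHY did not pass in the fit of all 12 libraries (edgeR adjusted p from 0.608 to 0.841). LHY lost its call without WT library 1 (edgeR adjusted p = 0.0745), without WT library 2 (edgeR adjusted p = 0.0505) and without WT library 3 (edgeR adjusted p = 0.0816).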

How the data were processed

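Total RNA of stigma and style was sequenced, and the authors deposited 1 table with raw read counts and FPKM for each library and their own fold changes and false discovery rates. HISAT, HISAT2 and DESeq2 are the tools named, per the submitters' processing notes. Which versions, genome build, annotation and strand setting were used, and how reads shared by near-identical genes were counted, is not given in the sources used here, so splits between copies are uncertain. The FPKM values, counts scaled to gene length and library size, are used as deposited by the authors. The ratio columns of the authors' deposited table enter only the count of shared calls.

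The 3 double mutant and 3 WT libraries were fitted alone, with no covariate, with edgeR (version 4.0.16, R 4.3.3) after filterByExpr at a minimum count of 10 (TMM factors, quasi-likelihood test, Benjamini-Hochberg adjustment) on the deposited counts. Alternatives were DESeq2 1.42.0, limma 3.58.1 (voom, and log2 of FPKM plus 1 or 0.1), other scaling factors, no filter, a replicate block, the other libraries in the fit, and each of the 6 libraries left out, 17 in all. Python 3.11.15, pandas 2.3.3 and scipy 1.17.1 made the tables. The fit was also run on simulated data with far fewer changed genes than were called here. That run therefore cannot measure its errors at the share of calls found here. Exact 95% intervals and the floor of 3 counts cover counting error only.

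The 55 gene lists, drawn by protein name, and the naming rule were chosen with earlier results of these data known. The rule gave 287 genes. These were first the 15 largest rises and falls among named, non-overlapping genes of at least 2 FPKM. To these came the 10 largest rises and falls in FPKM among named genes called with at least a 2-fold difference. Up to 4 called, non-overlapping members of at least 2 FPKM per list were added (lists of up to 12 tested members in full). SPATULA and ALCATRAZ names and markers made up the rest. One of these genes is not reported here. The text describes some of the others, mostly those called in each of the 6 fits that leave out 1 library. None of the gene identifiers matched the RefSeq table, so names are those of the deposited annotation.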

Additional observations from a re-analysis of the deposited data

How the results depend on the processing

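Changing the scaling factors, the filter or the tool on counts moved the 6638 calls little: RLE factors gave 6673, upper quartile factors 6579, no filter 6441, DESeq2 7284 and limma-voom 6578. The fit of all 12 libraries gave 1353 calls (711 higher, 642 lower) and 920 of at least 2-fold (513 higher, 407 lower). Its common biological coefficient of variation was 0.363, against 0.18 for the 6 libraries, and without Csalc library 3 the value was 0.193, with 6875 calls, 6164 of them shared. With limma on log2(FPKM + 1), 6312 genes were called, and those of at least 2-fold numbered 1536 (1020 higher, 516 lower), or 1510 (999 higher, 511 lower) with no filter; a pseudocount of 1 shrinks the fold of low genes. On log2(FPKM + 0.1), 6292 were called. With 1 library left out, total calls ranged from 4467 to 6089, higher from 2555 to 3235 and lower from 1912 to 2854, the lowest of each without WT library 3. At least 2-fold these ranges were 2195 to 2573 in total, 1426 to 1667 higher and 762 to 906 lower. Library numbers did not pair the samples: deviations of same-numbered libraries correlated at -0.173, -0.051 and 0.010, and no library correlated best with its own number. A fit with the replicate number as a block gave 4946 calls (2791 higher, 2155 lower), 4854 of them shared. Among the 238 called genes under the naming rule, 206 were called in each fit that left out 1 library, and 223 under the block. No single gene under the naming rule changed direction while called in any of the 17 alternatives, whereas the balance of rises and falls turned in some lists, as given with them. Each library held 32244933 counts or more. Of genes under 1 FPKM in both groups 18.4% were called, against 34.1% from 1 to 10 FPKM. From 10 to 100 FPKM 40.1% were called, and 48.8% at 100 FPKM or more. The part of depth in these shares was not tested.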

Other observations

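Some genes were expressed in the double mutant and at or near 0 in WT. Among genes under 0.1 FPKM in every library of 1 group and at 1 FPKM or more in every library of the other, 7 were on in the double mutant and 4 in WT. Of the 7, 2 carry names of NAC factors that in Arabidopsis act in secondary wall formation. NAC domain-containing protein 7 (Csa5G160180) averaged 1.54 FPKM in the double mutant and 0.0153 FPKM in WT, and NAC domain-containing protein 73 (Csa2G408970) averaged 1.70 FPKM in the double mutant and 0.046 FPKM in WT. The Myb factor RAX3 (Csa2G352950), named for regulators of axillary meristems in Arabidopsis, averaged 1.16 FPKM in the double mutant and 0.0218 FPKM in WT. Of the 4 that were on in WT, the 21 kDa protein (Csa3G176250) had no count in the double mutant and was at least 87.2-fold lower there, with a floor of 3 counts over its libraries. EIN3-binding F-box protein 1 (CsaUNG009930), named for a brake on ethylene signalling, averaged 0.0058 FPKM in the double mutant and 2.00 FPKM in WT. These genes were picked after their values were seen.

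Of 711 tested new gene models, which the authors added to the annotation, 98 rose and 85 fell, a smaller share than the 36.1% of all genes called; the difference was not tested.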
